A study of Mus musculus with 15 samples.

Results

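The mouse mitochondrial genome contributed 37 genes to the gene tables, chosen as every gene whose symbol begins with mt- among the 55401 genes listed. They are 13 protein genes, 2 rRNA genes and 22 tRNA genes, all on chromosome M of GRCm38. Their transcripts were measured by RNA sequencing of heart tissue from male C57BL6 mice, 12 weeks old in the study's methods, that received the β-adrenergic agonist isoproterenol under the skin at 50 mg/kg/day. There were 4 libraries after 4 days of isoproterenol, 3 after 8 days, 4 after 11 days and 4 from saline-treated controls given injections for a similar period. The study left out 1 replicate of the 8-day group. Nothing in the labels says that each library came from its own mouse, so p-values measure the spread between these libraries. Myh6, the α-myosin heavy chain of adult heart muscle, lay between 14962 and 21544 CPM in the 15 libraries, where CPM is the count scaled to the library total after TMM, which evens out composition between libraries.

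Mitochondrial DNA is a small circle, and both of its strands are transcribed into long precursor RNAs. The precursors are cut mainly at the tRNAs that punctuate the genes, releasing rRNAs, mRNAs and tRNAs. The proteins it encodes are core subunits of 4 complexes of oxidative phosphorylation, and all the proteins that copy, transcribe and translate this genome are made from nuclear genes. Heart muscle is among the tissues richest in mitochondria. Of the 13 protein genes, 7 encode subunits of complex I (mt-Nd1 to mt-Nd6 and mt-Nd4l), 1 encodes cytochrome b of complex III (mt-Cytb), 3 encode subunits of complex IV (mt-Co1 to mt-Co3) and 2 encode subunits of complex V, the ATP synthase (mt-Atp6 and mt-Atp8). In the annotation 12 protein genes and both rRNA genes lie on the plus strand. mt-Nd6 and 8 tRNA genes lie on the minus strand.

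Before any level is read, the sequence of these genes matters, since 7 of the 13 protein genes have a near-identical pseudogene in the nuclear genome. The 7 pseudogenes stand in a row on the minus strand of chromosome 1 (chr1:24611535-24616197, GRCm38, 4663 bases), each at least 99% identical over at least 90% of its own length. They are Gm29216 (copy of the end of mt-Co1), Gm28661 (mt-Co2), Gm10925 (mt-Atp6), Gm28437 (mt-Co3), Gm28438 (mt-Nd3), Gm10222 (mt-Nd4l) and Gm28439 (the first 876 bases of mt-Nd4). Over the aligned bases 5 of the 7 carry no difference from the mitochondrial gene and 2 carry a single difference. The following 30-base windows, from the GENCODE M21 transcripts, show how little separates the reads. Capitals mark the differing base in the first 4 windows and the bases beyond the annotated end of the copy in the others. The sequence of chromosome 1 past those annotated ends was not examined.
mt-Nd3, chrM:9459-9488, plus strand: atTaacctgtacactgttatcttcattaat
Gm28438, chr1:24613090-24613119, minus strand: atCaacctgtacactgttatcttcattaat
mt-Co1, chrM:6390-6419, plus strand: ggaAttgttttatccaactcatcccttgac
Gm29216, chr1:24616159-24616188, minus strand: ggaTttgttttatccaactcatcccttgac
mt-Co2, chrM:7667-7696, plus strand: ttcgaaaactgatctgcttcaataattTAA
Gm28661, chr1:24614885-24614911, minus strand: ttcgaaaactgatctgcttcaataatt
mt-Co3, chrM:9361-9390, plus strand: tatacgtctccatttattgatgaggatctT
Gm28437, chr1:24613189-24613217, minus strand: tatacgtctccatttattgatgaggatct
mt-Atp6, chrM:8578-8607, plus strand: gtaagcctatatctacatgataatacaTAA
Gm10925, chr1:24613974-24614000, minus strand: gtaagcctatatctacatgataataca
Written with the mitochondrial base first, the position counted from 1 at the first base of the mitochondrial gene, and then the base of the copy, the single differences are T3C in mt-Nd3 and A1066T in mt-Co1. By these transcript sequences a read inside mt-Co2 differs from Gm28661 only where it reaches the last 3 of its 684 bases.

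The counting program divided such reads between the gene and its copy, and for mt-Co2 and mt-Co3 nearly all of them went to the copy. The share of the pair's counts that was assigned to mt-Co2 ranged from 0.306% to 1.65% over the 15 libraries, with a median of 0.682%. It ranged from 1.41% to 3.67% for mt-Co3 and from 10.7% to 24.7% for mt-Atp6. In saline replicate A, for example, mt-Co2 was listed with 5321 counts and Gm28661 with 998530. The division was less one-sided for mt-Nd4l, at 23.4% to 53.2%, and for mt-Nd3, at 57.0% to 98.4%. It favoured the mitochondrial gene for mt-Co1, at 93.0% to 96.9%, and for mt-Nd4, at 97.3% to 100%. The values of mt-Co2, mt-Co3, mt-Atp6, mt-Nd4l and mt-Nd3 as counted are therefore uncertain, and results that turn on them are given both as counted and with the counts of the copy added to its gene. Adding them assumes that the copies' reads are mitochondrial, which counts alone cannot show.

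**Figure D1:**
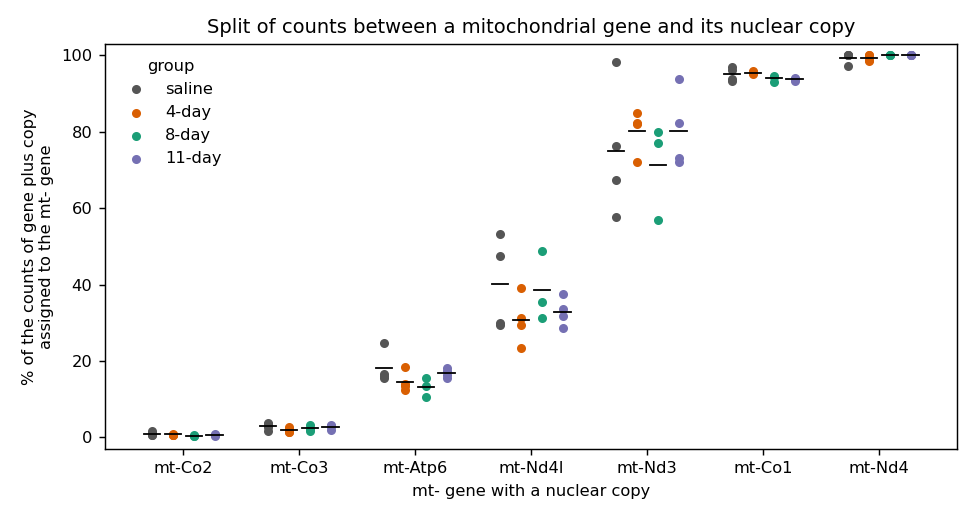
Percentage of the counts of a mitochondrial gene plus its nuclear copy that was assigned to the mitochondrial gene (y axis) for the 7 genes with a copy (x axis). Each point is 1 library, coloured by group, and the black line is the group mean; mt-Co2 and mt-Co3 lie under 4% in every library while mt-Co1 and mt-Nd4 lie above 92%.

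Summed expected counts ran from 25404162 to 117777005 per library, and the 37 genes took 47.5% to 58.4% of them. Most of this was rRNA. mt-Rnr2, the rRNA of the large mitochondrial ribosomal subunit, took 33.2% to 43.7% of a library and mt-Rnr1, the rRNA of the small subunit, 4.88% to 8.28%. The kit was a total RNA kit and the removal of mitochondrial rRNA is not given in the sources used here, and its part in the rRNA level was not tested. In 1 library, 8-day replicate A, the genes CT010467.1 and Lars2 together took 15.8% of all counts. The other 14 libraries had 0.0116% to 0.0916%. Lars2 encodes the mitochondrial leucyl-tRNA synthetase, but which RNA these reads came from was not tested, so they are not read as its expression.

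The rRNA share of the library was 45.9% ± 3.61 in saline hearts (SD, n = 4), 41.4% ± 1.75 after 4 days (n = 4), 44.0% ± 2.75 after 8 days (n = 3) and 41.7% ± 1.501 after 11 days (n = 4). The highest 4-day library (43.7%) exceeded the lowest saline library (41.8%), so these groups overlap. The 13 mRNAs as counted took 8.21% ± 0.776, 8.17% ± 0.685, 8.28% ± 0.666 and 9.40% ± 0.365 in the same order. With the copies added the mRNA share was 11.8% ± 1.296 in saline hearts, 11.8% ± 1.01 at 4 days, 12.0% ± 0.887 at 8 days and 13.8% ± 0.667 at 11 days. The 11-day libraries (13.2% to 14.6%) lay above every 4-day library (10.8% to 13.1%) and above 3 of the 4 saline libraries, of which replicate A (13.7%) fell among them. In 8-day replicate A the total includes the 15.8% taken by CT010467.1 and Lars2, which lowers every other share of that library. Its mRNA share with the copies was 11.3%, the lowest of the 8-day libraries, so the 8-day means carry this limit. These shares are sums over the genes and were not tested.

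The mRNA counts with copies per 100 rRNA counts were also highest at 11 days. They were 32.8, 24.9, 23.3 and 22.8 in the 4 saline libraries, 28.4, 27.9, 26.7 and 31.3 at 4 days, 25.8, 27.7 and 28.5 at 8 days, and 33.6, 35.0, 30.5 and 32.8 at 11 days. Saline replicate A and 4-day replicate D lay among the 11-day libraries, and the other 3 saline libraries were the lowest of all 15. The ratio of mt-Rnr2 to mt-Rnr1 counts was less even, from 4.28 in 8-day replicate A and 4.65 in 4-day replicate C to 7.86 in 4-day replicate B, and was closest among the 11-day libraries (6.84 to 7.501).

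**Figure D2:**
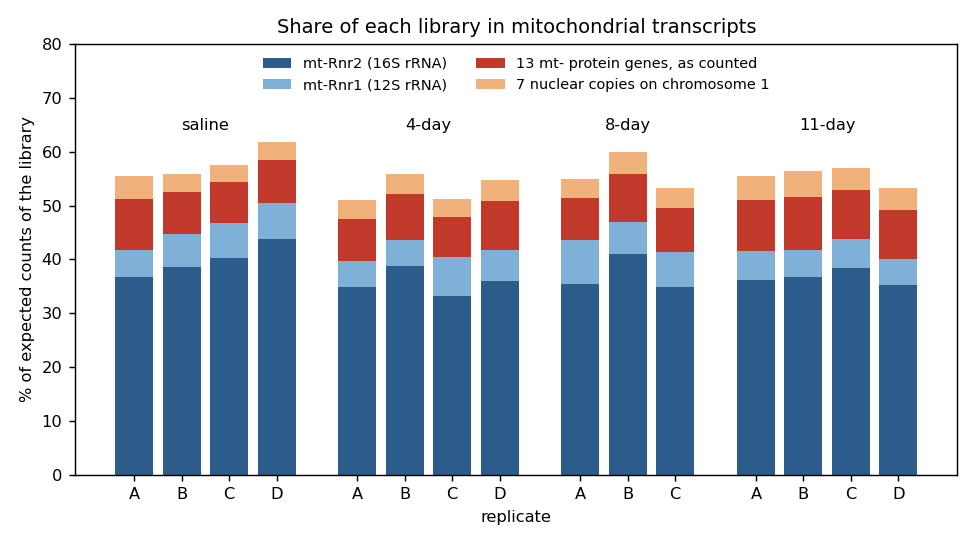
Percentage of the expected counts of each library (y axis) taken by both mitochondrial rRNAs, by the 13 mRNAs as counted and by the 7 nuclear copies, for each replicate of each group (x axis). Bars are stacked from 0. rRNA makes up 39.7% to 50.4% of every library and the nuclear copies 3.19% to 4.79%. The total of 8-day replicate A includes the 15.8% taken by CT010467.1 and Lars2.

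Per base of transcript, the levels of these genes spanned a wide range although they leave the genome on shared precursors. In saline hearts the mean FPKM (fragments scaled to transcript length and library depth), recomputed from counts with the copies added, was 281763 ± 20926 for mt-Rnr2 and 77199 ± 9566 for mt-Rnr1 (SD, n = 4). The highest mRNAs were those of complex IV. mt-Co2, which carries a copper center that takes electrons from cytochrome c, stood at 28026 ± 5097 FPKM. mt-Co1, the catalytic subunit, stood at 26703 ± 3437 and mt-Co3 at 21436 ± 2617, and mt-Co2 and mt-Co1 lay within their spread of each other. mt-Atp6, part of the proton channel of the ATP synthase, followed at 14274 ± 1711 FPKM, with mt-Atp8, whose level is uncertain, kept out of this order. mt-Nd1 (11570 ± 2097) and mt-Cytb (11313 ± 1487) came next and were within their spread of each other.

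The other complex I mRNAs were lower. mt-Nd3, mt-Nd2 and mt-Nd4 lay together at 6969 ± 1348, 6779 ± 1044 and 6731 ± 210.0 FPKM. mt-Nd4l, mt-Nd5 and mt-Nd6 were lowest at 4882 ± 265, 4603 ± 321 and 3964 ± 694 FPKM. mt-Nd6 is the single mRNA of the minus strand and shares 14 bases with mt-Nd5 on the other strand (chrM:13552-13565). The strand setting of the counting is not given in the sources used here, so reads in that stretch cannot be told apart. Neither can reads in the 7 bases that mt-Nd4l shares with mt-Nd4, shown in capitals at the end of the last 30 bases of mt-Nd4l (chrM:10144-10173, plus strand).
mt-Nd4l: gtccaaaatctcaacctactacaATGCTAA
In mt-Atp8 and mt-Atp6 the overlap is 43 bases (chrM:7927-7969), and the window that enters it (chrM:7921-7950) has the start codon of mt-Atp6 in capitals.
mt-Atp8: attaaaATGaacgaaaatctatttgcctca
mt-Atp8 was listed at 21276 ± 1553 FPKM, but its effective length was 38.3 to 54.6 bases against 204 annotated, which makes that level the least certain of the mRNAs. As deposited, without the copies, mt-Co2 stood at 250.2 ± 113, mt-Co3 at 629 ± 235 and mt-Atp6 at 2566 ± 497 FPKM, which would place mt-Co2 and mt-Co3 below every other mRNA.

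The first question of the design is which transcripts differ between isoproterenol and saline hearts at each time. For the mitochondrial genes, 23 of the 37 had a sum of at least 10 counts over the 15 libraries and entered the test. They were the 13 protein genes, both rRNAs and 8 tRNAs. At 4 days the edgeR quasi-likelihood test with Benjamini-Hochberg adjustment over all 26862 genes called 0 of the 23, whereas 9.46% of all genes were called, 6.05% higher and 3.4% lower. Of the 23, 5 had an unadjusted p under 0.05, and DESeq2 called 2, mt-Nd5 and mt-Rnr2, both lower. At 8 days 0 of the 23 were called beside 2.27% of all genes (1.07% higher and 1.2% lower), with 1 unadjusted p under 0.05 and 0 calls by DESeq2. At 11 days 0 of the 23 were called beside 3.75% of all genes (1.8% higher and 1.95% lower), with 4 unadjusted p under 0.05 and 1 call by DESeq2, mt-Nd5, lower. edgeR with the copies added again called 0 at each time, beside 9.51%, 2.35% and 3.75% of all genes, with 3, 0 and 5 unadjusted p under 0.05. DESeq2 tested 21, 17 and 18 of the 23 genes at 4, 8 and 11 days. Its share of all genes called is not given here.

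The fold changes behind these counts were small and mostly below 0 at 4 days. With the copies added, 12 of the 13 mRNAs had a log2 fold change below 0 at 4 days, with a median of -0.22 and a range of -0.38 to 0.09. All genes tested had a median of 0.01 in this fit. With library size as the only scaling the median of all genes moved to 0.21 and 8 of the 13 mRNAs lay below 0, so the direction of several mRNAs on the library scale differs from that relative to all genes. At 8 days 10 of the 13 lay above 0 (median 0.18, range -0.35 to 0.32), or 7 with library size only. At 11 days 10 lay above 0 (median 0.13, range -0.33 to 0.28), or 11 with library size only. As counted, 7 lay above 0 at each of these times, with medians of 0.003 at 8 days and 0.12 at 11 days. The smallest adjusted p of an mRNA was 0.107 at 4 days, 0.399 at 8 days and 0.154 at 11 days with the copies added. In 8-day replicate A, where CT010467.1 and Lars2 took 15.8% of all counts, the TMM scaling factor was 0.704, the lowest of the 15 libraries. mt-Co1 with its copy stood at 54500, 45551 and 34555 CPM in 8-day replicates A, B and C. Without 8-day replicate A 0 of the 23 were called at 8 days (edgeR). The part of its scaling in the 8-day fold changes was not tested.

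By complex, and with the copies added, the mRNAs furthest below saline at each time belonged to complex I. mt-Nd5, a proton-pumping core subunit, stood at 7598, 6699, 7649 and 10058 CPM in saline hearts, at 6143, 6548, 5858 and 6347 CPM at 4 days, at 7713, 7508 and 6491 CPM at 8 days, and at 6502, 6276, 6188 and 6538 CPM at 11 days. On this TMM scale every 4-day and every 11-day library lay below every saline library, by a narrow margin below saline replicate B. In FPKM, which has no TMM scaling, 4-day replicates A (4278) and D (4197) lay above saline replicate B (4190). There the 11-day libraries (3756 to 4154) still lay below every saline library. The log2 fold changes were -0.36 ± 0.12 at 4 days (SE, adjusted p = 0.0948) and -0.33 ± 0.11 at 11 days (adjusted p = 0.130), edgeR, as counted. Without saline replicate B, the lowest saline library for this gene, both were called, with adjusted p of 0.0327 and 0.0331 (edgeR). At each time this was the only 1 of the 8 fits with a library left out that called mt-Nd5. The other fits had adjusted p of up to 0.270 at 4 days and 0.285 at 11 days (edgeR). Over 12 other settings the 4-day value ranged from -0.37 to -0.14 and was called in 2. The summed level of 10 endothelial markers also lay below that of saline hearts (1128 to 1300 CPM) without overlap, at 871 to 1055 CPM at 4 days and 1013 to 1121 CPM at 11 days. It did so at 8 days too (967 to 1077 CPM), where the mt-Nd5 libraries overlapped those of saline. The median log2 fold change of the 10 markers was -0.05, 0.06 and -0.04 at 4, 8 and 11 days. Of the 10, 1 passed at each of these times, Cd36, lower, beside 3.4%, 1.2% and 1.95% of all genes lower. Its log2 fold change was -0.56 ± 0.11 at 4 days (edgeR, adjusted p = 0.00672), -0.53 ± 0.11 at 8 days (edgeR, adjusted p = 0.0256) and -0.36 ± 0.09 at 11 days (edgeR, adjusted p = 0.0315). At 4 days 2 passed without saline replicate C, and at 11 days 0 passed without any 1 library other than saline replicate B or C. At 8 days 0 passed without saline replicate A or D or 8-day replicate B or C. The part of these markers in the values of mt-Nd5 was not tested. mt-Nd6, its antisense neighbour, had a log2 fold change of -0.38 ± 0.17 at 4 days and -0.19 ± 0.15 at 11 days, and its groups overlapped. mt-Nd4l as counted was at -0.63 ± 0.20 at 4 days (edgeR, adjusted p = 0.0726, called without saline replicate B), and with Gm10222 added at -0.23 ± 0.12 (edgeR, adjusted p = 0.290).

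mt-Cytb of complex III was at -0.17 ± 0.14 at 4 days, 0.18 ± 0.17 at 8 days and 0.27 ± 0.12 at 11 days on the log2 scale, with overlapping libraries each time. In complex IV the values moved with the treatment of the copies. mt-Co3 as counted was at -0.91 ± 0.29 at 4 days (adjusted p = 0.0647), and with Gm28437 added at -0.30 ± 0.13 (adjusted p = 0.202). The value as counted was called without saline replicate B or 4-day replicate D. mt-Co2 as counted was at -0.94 ± 0.37 at 8 days and with Gm28661 added at 0.04 ± 0.18. mt-Co1, of which most counts stayed with the mitochondrial gene, was at -0.19 ± 0.13, 0.21 ± 0.17 and 0.15 ± 0.10 at 4, 8 and 11 days. In complex V, mt-Atp6 with Gm10925 added was at -0.09 ± 0.14, 0.24 ± 0.17 and 0.28 ± 0.12 in the same order, and mt-Atp8 at 0.09 ± 0.15, 0.32 ± 0.15 and 0.21 ± 0.11 as counted. The rRNAs varied widely between libraries. mt-Rnr1 lay between 46359 and 53277 CPM at 11 days against 50181 to 81148 CPM in saline hearts, and reached 117574 CPM in 8-day replicate A. In that library it took 8.28% of the unscaled counts, and the TMM scaling factor was 0.704.

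**Figure D3:**
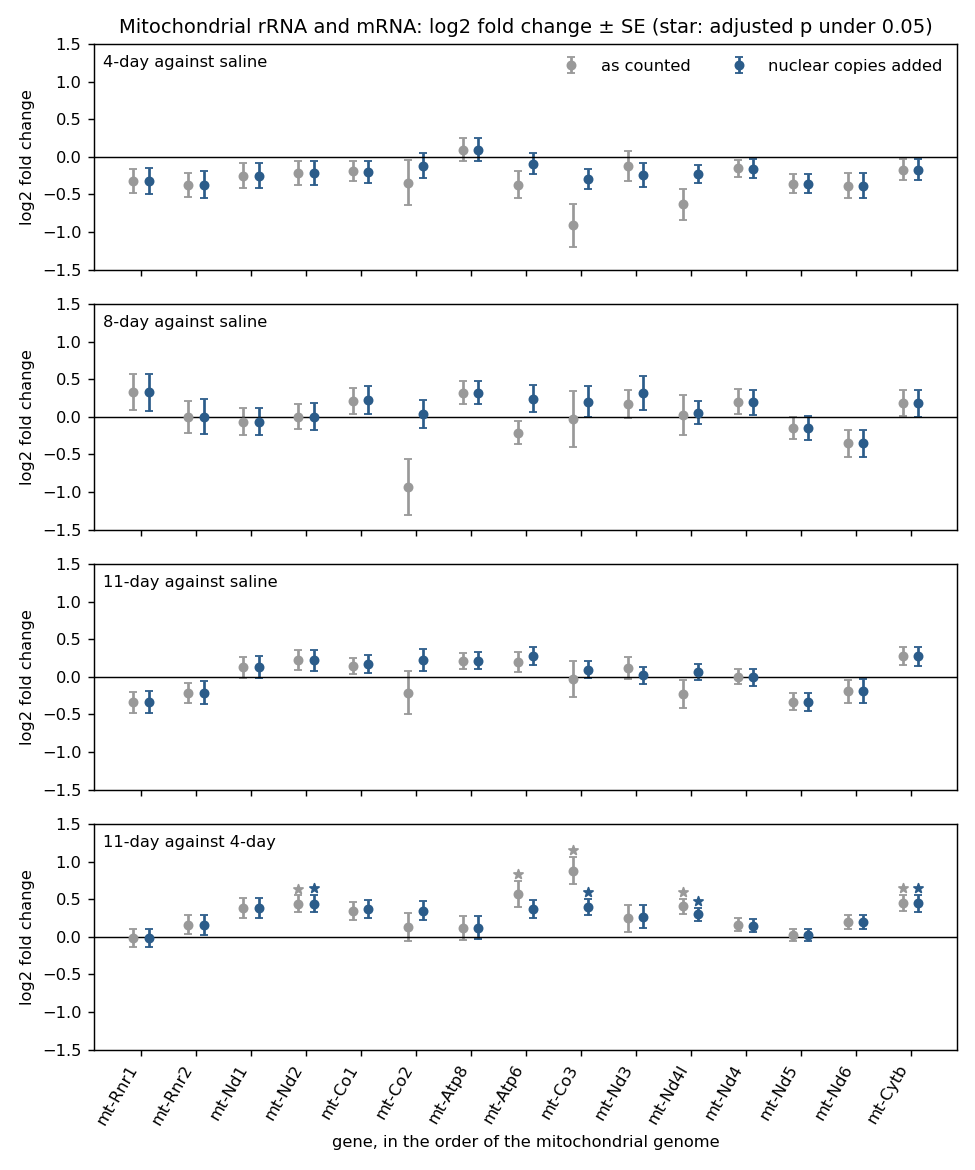
log2 fold change (y axis) with its SE (bars) of the 2 rRNAs and 13 mRNAs in genome order (x axis), as counted (grey) and with the nuclear copies added (blue), for the 3 times against saline and for 11 against 4 days. Stars mark an adjusted p under 0.05, which occurs only in the lowest panel, and the grey and blue values part most at mt-Co2 and mt-Co3.

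Treatment times were also compared with each other. Between 11 and 4 days, 5 of the 23 mitochondrial genes were called higher as counted and 0 lower, where 10.3% of all genes were called, 3.75% higher and 6.55% lower. Adding the copies left 4 called higher, mt-Cytb, mt-Nd2, mt-Co3 and mt-Nd4l, beside 3.74% of all genes. All 13 mRNAs had a log2 fold change above 0 (median 0.34, range 0.03 to 0.45), while mt-Rnr1 was at -0.02 ± 0.12 and mt-Rnr2 at 0.16 ± 0.13. With library size as the only scaling 12 of the 13 lay above 0 and the median of all genes was at -0.15. Between 8 and 4 days and between 11 and 8 days 0 of the 23 were called, beside 0.249% and 0.138% of all genes, with 4 unadjusted p under 0.05 in each and 0 calls by DESeq2. DESeq2 tested 17 and 15 of the 23 in these comparisons.

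mt-Cytb, the cytochrome b subunit that hands electrons through complex III, stood at 9863, 11460, 8503 and 11052 CPM at 4 days and at 14502, 15160, 13494 and 12858 CPM at 11 days. Every 11-day library was above every 4-day library, and the saline libraries (9522 to 13417 CPM) spanned the gap between them. The log2 fold change was 0.45 ± 0.11 (edgeR, adjusted p = 0.0203). mt-Nd2, a membrane subunit of complex I, stood at 4998, 5977, 4290 and 5967 CPM at 4 days and at 7505, 7688, 6860 and 6904 CPM at 11 days, without overlap. Its log2 fold change was 0.44 ± 0.11 (edgeR, adjusted p = 0.0241), and the saline libraries ranged from 4597 to 7742 CPM.

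mt-Co3 with its copy stood at 10248, 12333, 9618 and 12270 CPM at 4 days and at 14797, 16333, 14375 and 13329 CPM at 11 days, again without overlap. Its log2 fold change was 0.40 ± 0.11 with the copy (edgeR, adjusted p = 0.0360) and 0.88 ± 0.18 as counted (edgeR, adjusted p = 0.00805). mt-Nd4l with its copy stood at 592, 631, 494 and 584 CPM at 4 days and at 741, 766, 669 and 668 CPM at 11 days. Its log2 fold change was 0.30 ± 0.09 with the copy (edgeR, adjusted p = 0.0464) and 0.40 ± 0.10 as counted (edgeR, adjusted p = 0.0182). mt-Atp6 passed as counted (0.57 ± 0.17, edgeR, adjusted p = 0.0497) and not with its copy (0.37 ± 0.11, edgeR, adjusted p = 0.0567). mt-Nd5 stayed at 0.03 ± 0.08, its 11-day libraries overlapping those of 4 days.

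Most of these calls rested on few libraries. With the copies added, 0 of the 23 were called without 4-day replicate A, without 11-day replicate A or without 11-day replicate B, 2 (mt-Cytb and mt-Nd2) without 4-day replicate C, 11-day replicate C or 11-day replicate D, and 9 without 4-day replicate B. Without 4-day replicate D 4 were called, with mt-Atp6 in the place of mt-Nd4l. As counted, 2 were called without 4-day replicate A, 11-day replicate A or 11-day replicate B, 3 without 4-day replicate C or 11-day replicate C, 4 without 4-day replicate D, 5 without 11-day replicate D, and 8 without 4-day replicate B. mt-Co3 as counted was called in each of these 8 fits (edgeR, adjusted p of up to 0.0254) and mt-Nd4l as counted in 7, though the division of their reads is uncertain. With robust dispersions mt-Co3 as counted was not called. A fit of all 4 groups together called 0.

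Markers of other cell types moved in the same comparison, where 6.55% of all genes were lower and 3.75% higher. Of 12 macrophage and leukocyte markers 10 were lower and 0 higher at 11 than at 4 days, with summed levels of 228 to 387 CPM at 4 days, 173 to 207 CPM at 11 days and 118 to 188 CPM in saline hearts. Of 11 fibroblast markers 6 were lower and 1 higher, with sums of 1675 to 5177 CPM at 4 days, 1144 to 1805 CPM at 11 days and 808 to 999 CPM in saline hearts. Of 14 cardiomyocyte markers 5 were higher and 2 lower (2 higher without 11-day replicate B, 3 without 11-day replicate A or 4-day replicate A, C or D, and 6 without 4-day replicate B), with sums of 71586 to 81211 CPM at 4 days, 78919 to 85811 CPM at 11 days and 74651 to 83441 CPM in saline hearts. At 4 days against saline 10 macrophage and leukocyte markers were higher and 0 lower, and 9 fibroblast markers higher and 1 lower. Of all genes 6.05% were higher and 3.4% lower there. In bulk tissue fewer cells of a type and less RNA per cell cannot be told apart, and the part of these markers in the mitochondrial values was not tested.

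**Figure D4:**
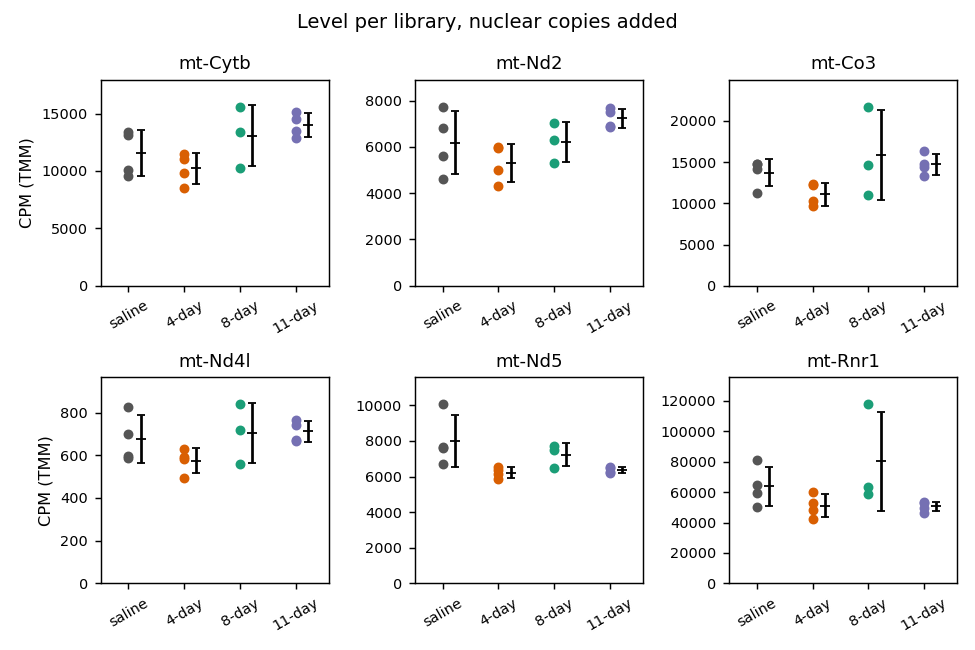
Level of 6 mitochondrial genes in each library in CPM after TMM scaling, with nuclear copies added (y axis from 0), by group (x axis). Points are libraries and black bars the mean ± SD; for mt-Cytb, mt-Nd2, mt-Co3 and mt-Nd4l every 11-day point lies above every 4-day point, and for mt-Nd5 every 4-day and 11-day point lies below every saline point.

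The balance among the 13 mRNAs was examined by scaling each library to their sum. Counted with its copy, mt-Co1 made up 28.8% to 34.0% of the mRNA counts in every group, mt-Co2 9.59% to 13.5%, mt-Co3 10.3% to 13.6% and mt-Cytb 8.80% to 10.4%. mt-Nd4l, the shortest complex I gene, made up 0.491% to 0.607%. At 11 days against saline this fit called 2 of the 23 genes lower and 0 higher, mt-Nd5 and mt-Rnr1, both with the copies added and as counted. Of all genes, 1.86% were called lower with the copies added (2.2% in either direction) and 1.71% as counted (2.1% in either direction).

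mt-Nd5 made up 5.55%, 6.25%, 7.07% and 7.19% of the mRNA counts in the saline libraries, 6.30%, 5.50%, 6.45% and 5.33% at 4 days, 4.81%, 5.37% and 6.07% at 8 days, and 4.66%, 4.26%, 4.69% and 5.23% at 11 days. The 11-day libraries lay below all saline libraries, and the 4-day and 8-day libraries overlapped with those of saline. At 11 days the log2 fold change relative to the 13 mRNAs was -0.47 ± 0.11 (edgeR, adjusted p = 0.0186), with -0.44 ± 0.10 as counted (edgeR, adjusted p = 0.0217). As counted, the call was lost without saline replicate C or without 11-day replicate A, B or C, where the adjusted p (edgeR) was at most 0.0785, and in the fit of all groups. It was also lost when the sum of all mitochondrial genes, which is mostly rRNA, was the reference (adjusted p = 0.614, edgeR).

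mt-Rnr1 relative to the mRNAs was at -0.49 ± 0.12 at 11 days (edgeR, adjusted p = 0.0323), and mt-Rnr2 at -0.36 ± 0.10 (edgeR, adjusted p = 0.0553). As counted, the call of mt-Rnr1 held only without saline replicate A among the 8 libraries left out in turn, with adjusted p (edgeR) of up to 0.175. mt-Atp6 made up 6.09% to 6.32% of the mRNA counts in saline hearts and 6.45% to 7.02%, 6.52% to 6.86% and 6.60% to 7.03% at 4, 8 and 11 days. Its log2 fold changes were 0.11 ± 0.10, 0.10 ± 0.19 and 0.14 ± 0.09, and none passed the test. The 3 times share the saline libraries. Markers of other cell types differed between the same groups. They were tested in the TMM fit and not relative to the mRNAs, and there 1.8% of all genes were higher and 1.95% lower at 11 days. At 11 days 3 of 11 fibroblast markers were higher than in saline hearts, 6 without saline replicate B and 2 to 4 without any other library. Of 12 macrophage and leukocyte markers 1 was higher, 3 without saline replicate B and 0 or 1 without any other, with 1 lower without saline replicate D. Of 7 red blood cell markers 2 were lower, 5 without saline replicate D or 11-day replicate D and 0 without any other, with sums of 106 to 576 CPM in saline hearts and 63.9 to 201 CPM at 11 days. The part of these markers in the composition was not tested.

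At 4 days 0 of the 23 genes were called relative to the mRNAs, with and without the copies, beside 6.61% of all genes as counted and 6.01% with the copies. The unadjusted p was under 0.05 for 3 genes as counted and for 1 with the copies. At 8 days 1 gene was called as counted, mt-Co2, with a log2 fold change of -1.04 ± 0.21 (edgeR, adjusted p = 0.000183), beside 1.68% of all genes (1.1% lower). mt-Co2 as counted made up 0.102%, 0.0851%, 0.245% and 0.205% of the mRNA counts in saline hearts and 0.0433%, 0.124% and 0.0659% at 8 days, so the groups overlapped. With Gm28661 added the log2 fold change was -0.07 ± 0.19 (edgeR, adjusted p = 0.984), and 0 of the 23 were called, beside 1.53% of all genes, with 1 unadjusted p under 0.05. The call as counted was also lost without saline replicate C or without 8-day replicate A.

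**Figure D5:**
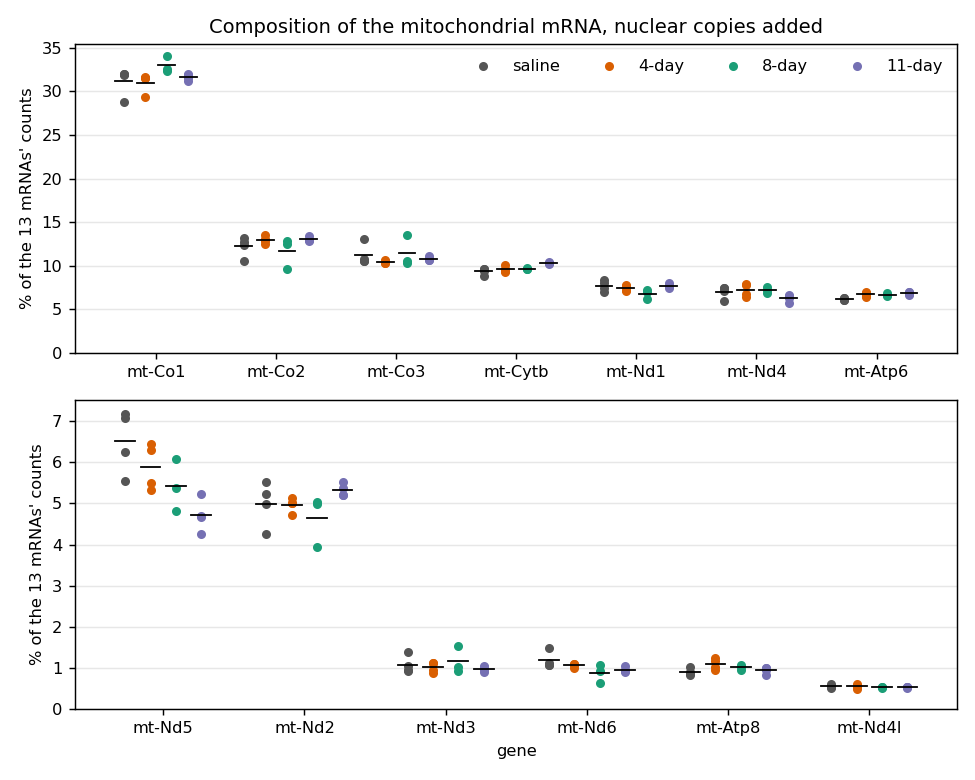
Share of each mRNA in the summed counts of the 13 mitochondrial mRNAs with nuclear copies added (y axis, %), genes ordered by mean share (x axis). Points are libraries coloured by group and black lines group means; mt-Nd5 falls from a mean of 6.51% in saline hearts to 4.71% at 11 days, where no library reaches the lowest saline library.

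The 22 tRNA genes were close to unmeasured. They are 59 to 75 bases long, reads shorter than 50 bases had been discarded, and the counting program gave each an effective length of 0. All 22 together had 29 to 224 counts per library, or 0.623 to 2.26 CPM of the unscaled library. Of the 14 tRNA genes on the plus strand 10 had no count in any library, and of the 8 on the minus strand none was at 0. The minus strand held 70.0% of all tRNA counts. The most counted were mt-Ts1, a serine tRNA, with 441 counts over the 15 libraries, and mt-Tm, the methionine tRNA, with 358. Of the 8 tRNAs tested none passed in any of the 6 comparisons, and at this depth no difference was detectable. mt-Ts1 ends in the last 3 bases of mt-Co1 on the opposite strand, so its counts carry the same doubt about strand.

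The nuclear genes that serve the mitochondrial genome were read in lists. Of 27 genes for maintenance and transcription of mitochondrial DNA, 1 was called at 4 days, 0 at 8 days and 1 at 11 days (edgeR), beside 9.46%, 2.27% and 3.75% of all genes, with 6, 2 and 3 unadjusted p under 0.05. DESeq2 called 4, 0 and 1 of them, for which no share of all genes is given. The median log2 fold change was -0.10, -0.02 and 0.05, beside 0.01, -0.01 and -0.01 for all genes. Both calls were higher, Primpol, a primase-polymerase, at 4 days (0.67 ± 0.18, edgeR, adjusted p = 0.0293) and Twnk, the mitochondrial DNA helicase, at 11 days (0.40 ± 0.10, edgeR, adjusted p = 0.0442). The list had 0 higher genes at 4 days without saline replicate A or D or 4-day replicate A, C or D, and at 11 days without saline replicate A, B or C or 11-day replicate A, B or D. Polrmt, the mitochondrial RNA polymerase, was at -0.02 ± 0.09, 0.10 ± 0.11 and 0.05 ± 0.09 at 4, 8 and 11 days. Tfam, which packages mitochondrial DNA and activates its promoters, was at -0.11 ± 0.12, -0.26 ± 0.12 and 0.01 ± 0.10, and the transcription factor Tfb2m at -0.23 ± 0.09, -0.11 ± 0.11 and -0.11 ± 0.09. Ppargc1a, a coactivator of mitochondrial biogenesis, was at -0.16 ± 0.12, 0.05 ± 0.14 and 0.20 ± 0.11. None of these 4 genes passed the test at any time.

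Of 40 genes for processing, modification and decay of mitochondrial RNA, 5 were lower and 0 higher at 4 days, beside 3.4% of all genes lower. At 8 days 0 were called by edgeR, with 8 unadjusted p under 0.05 and 1 call by DESeq2. At 11 days 1 was higher, Ptcd1, a pentatricopeptide repeat protein (0.30 ± 0.07, edgeR, adjusted p = 0.0365), beside 1.8% of all genes. It was 0 without saline replicate A or C or any of the 4 libraries of 11 days. Among the lower genes were Mtpap, the mitochondrial poly(A) polymerase (-0.39 ± 0.09, edgeR, adjusted p = 0.0183), and Hsd17b10, a subunit of the tRNA-processing RNase P (-0.38 ± 0.10, edgeR, adjusted p = 0.0256). Lrpprc, which stabilises mitochondrial mRNAs, fell at 4 days (-0.40 ± 0.11, edgeR, adjusted p = 0.0377) and stood at -0.38 ± 0.11 and -0.20 ± 0.08 at 8 and 11 days without passing. Its partner Slirp was at -0.14 ± 0.10, -0.02 ± 0.16 and -0.07 ± 0.10. The count of 5 lower genes was 0 without saline replicate A, 4-day replicate A or 4-day replicate C, 1 without saline replicate C or D, and 2 without 4-day replicate D. With library size as the only scaling 2 genes of this list were higher at 4 days and 0 lower.

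Of 34 genes listed with translation factors and tRNA synthetases 0 were higher and 2 lower at 4 days, beside 3.4% of all genes lower. They were Ears2, the glutamyl-tRNA synthetase (-0.52 ± 0.11, edgeR, adjusted p = 0.0107), and Gatb, of the glutaminyl-tRNA amidotransferase (-0.34 ± 0.09, edgeR, adjusted p = 0.0308). The count was 4 without saline replicate B and 1 without saline replicate A or D or 4-day replicate A, C or D. At 8 days 0 were called by edgeR, with 9 unadjusted p under 0.05 and 3 calls by DESeq2. At 11 days 1 was lower, beside 1.95% of all genes. It was Letm1, an inner membrane protein and not a tRNA synthetase, though in this list (-0.27 ± 0.07, edgeR, adjusted p = 0.0473). No other gene of the list was called at 11 days. The count was 0 when any single library but saline replicate C was left out. Of the 84 mitochondrial ribosomal protein genes 80 were tested, of which 0 were higher at any time and 4, 1 and 1 were lower at 4, 8 and 11 days, beside 3.4%, 1.2% and 1.95% of all genes. The lowest adjusted p at 4 days was that of Mrps28 (-0.50 ± 0.10, edgeR, adjusted p = 0.00882). The count of 4 was 6 without saline replicate B, 2 without 4-day replicate D, and 1 without saline replicate A or D or 4-day replicate A or C. At 8 days the lower gene was Mrpl28 (-0.49 ± 0.12, edgeR, adjusted p = 0.0493), with a count of 4 without saline replicate B and 0 without saline replicate A or D or any library of 8 days. At 11 days the lower gene was Mrpl3 (-0.43 ± 0.07, edgeR, adjusted p = 0.00670), and the count was 1 whichever single library was left out.

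The nuclear-encoded partners of the 13 proteins were called mainly at 4 days. Of 75 nuclear genes listed for complexes I, III, IV and V, 1 was higher and 8 lower at 4 days, beside 6.05% and 3.4% of all genes. By edgeR 0 were called at 8 and 11 days, with 18 and 9 unadjusted p under 0.05. DESeq2 called 22 at 4 days, 5 at 8 days and 5 at 11 days, and edgeR without saline replicate B called 4 lower at 8 and at 11 days. No share of all genes is given for these settings, so these counts cannot be set beside the shares above. Their median log2 fold changes were -0.23, -0.18 and -0.05 at 4, 8 and 11 days. Those of the 13 mitochondrial mRNAs were -0.22, 0.18 and 0.13 with copies and -0.25, 0.003 and 0.12 as counted. The 8-day value of the mRNAs thus rests on adding the copies. Between 11 and 4 days 20 of the 75 were higher and 2 lower, beside 3.75% and 6.55% of all genes, with a median of 0.18. The count of 20 was 37 without 4-day replicate B, 8 to 10 without 4-day replicate A or C or 11-day replicate B, and 12 or 13 without 11-day replicate A or D. The lower genes at 4 days included the heart and muscle isoforms Cox6a2 (-0.69 ± 0.14, edgeR, adjusted p = 0.00784) and Cox8b (-0.55 ± 0.12, edgeR, adjusted p = 0.00853) of complex IV and Ndufa1 of complex I (-0.51 ± 0.12, edgeR, adjusted p = 0.0166). The higher gene was Atpif1, listed with complex V though it encodes an inhibitor of the ATP synthase and not a subunit (0.55 ± 0.16, edgeR, adjusted p = 0.0456). The count of 8 lower genes was 22 without saline replicate B and 17 without 4-day replicate B, 4 without 4-day replicate D, 3 without saline replicate A or D, and 2 without 4-day replicate A or C. With library size as the only scaling 3 were higher and 1 lower.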

How the data were processed

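RNA of 15 heart libraries was measured. The authors trimmed reads with cutadapt 4.1 (quality 20, minimum length 50 bases), named HISAT2 2.2.1 and RSEM 1.3.3 in their processing notes with build GRCm38.p6, and deposited RSEM expected counts, FPKM and TPM values per gene. The strand setting and the gene annotation behind the RSEM tables were not found in the labels or methods. Before testing, the expected counts were rounded to whole numbers, and the 26862 genes whose counts reached 10 in all were tested with the quasi-likelihood test of edgeR 4.0.16 (TMM scaling, two-sided, Benjamini-Hochberg over all genes, threshold 0.05), each pair of groups in its own fit. A second fit set the library size to the sum of the 13 mitochondrial protein genes. SE is that of the log2 fold change. Shares of all genes called are those of edgeR with no library left out, and none is given for DESeq2 or left-out libraries. Nuclear copies were found with blastn 2.17.0 against GENCODE M21 transcripts, of which 54349 of 55401 gene IDs are part, with at least 99% identity over at least 90% of the copy and at least 100 aligned bases. CPM per library uses TMM over all 15 libraries. Named genes were every mitochondrial gene, 6 regulators and up to 3 genes per list and time with the smallest p among those called. Members and lists were chosen with earlier results of these data known. Both fits were tested on simulated data. Alternatives were other scalings, filters, DESeq2 1.42.0, effective lengths, robust dispersions, all groups in one fit, a replicate block, added copies and left-out libraries. Depth ran from 25404162 to 117777005 counts, and FPKM and TPM values served for levels per length and shares.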

Additional observations from a re-analysis of the deposited data

Results flagged for a closer look

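Between 11 and 4 days, which both have the same saline controls, the test of the difference itself called mitochondrial genes higher. As counted the log2 fold changes were 0.44 ± 0.11 for mt-Nd2 (edgeR, adjusted p = 0.0238), 0.57 ± 0.17 for mt-Atp6 (0.0497), 0.88 ± 0.18 for mt-Co3 (0.00805), 0.45 ± 0.11 for mt-Cytb (0.0197) and 0.40 ± 0.10 for mt-Nd4l (0.0182). With the copies added they were 0.44 ± 0.11 for mt-Nd2 (0.0241), 0.40 ± 0.11 for mt-Co3 (0.0360), 0.45 ± 0.11 for mt-Cytb (0.0203) and 0.30 ± 0.09 for mt-Nd4l (0.0464).

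In 77 groups of 4 values (shares of the library, CPM and the division between gene and copy) a library stood far from the other 3 in 3, where chance gives about 1 in 20. The number flagged, 3 of 77, is no more than that rate gives. All 3 concern the division of reads. In saline replicate C mt-Atp6 received 24.7% of the counts of its pair against 15.5% to 16.5% in the other saline libraries. In saline replicate D mt-Nd4 received 97.3% against 100% in the others. In 11-day replicate B mt-Co3 received 1.96% against 2.95% to 3.10% in the others.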

How the results depend on the processing

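Counts of mitochondrial genes called depended on the setting. At 4 days against saline 0 were lower in the chosen fit, 2 with no filter, with DESeq2 or with the replicate block, 1 with all groups in one fit, and 0 to 3 when a library was left out. At 8 days 1 was lower with library size only. At 11 days 1 was lower with DESeq2 and 0 to 1 without 1 library. Between 8 and 4 days 1 was higher with no filter and 1 lower with the replicate block. Between 11 and 4 days 5 were higher, against 3 with library size only, with or without the copies added, 3 with robust dispersions, 0 with all groups in one fit and 2 to 8 without 1 library. Between 11 and 8 days 1 was higher with the replicate block (mt-Atp6) and 0 to 1 without 1 library. mt-Co3, at -0.0042 with all libraries, ranged from -0.28 to 0.70 and was called without 8-day replicate A (edgeR, adjusted p = 0.0443). mt-Co2 was called without 8-day replicate B. With the copies added 0 were called without either library. In the composition, counting the 13 mRNAs alone, 0 to 1 were lower without 1 library at each of the 3 times. Counting all 23 genes, 0 to 3 were lower at 11 days without 1 library, 3 (mt-Nd5 and both rRNAs) without saline replicate A and 3 with the replicate block. At 4 days 1 was lower with no filter and 1 with the replicate block. At 8 days the 1 lower gene was lost (0) with robust dispersions, all groups in one fit and copies added, the last 1 of the settings chosen after seeing the data. At 11 days 0 were lower with all mitochondrial genes as reference and with all groups in one fit. The cause was not tested, beyond the copies themselves.

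The mean share of the library in all mitochondrial genes was 40.9%, 39.4%, 42.6% and 39.0% as TPM (saline, 4, 8 and 11 days). As a share of counts it was 54.1%, 49.5%, 52.3% and 51.1% as counted and 57.7%, 53.2%, 56.0% and 55.5% with copies added. For rRNA it was 31.8%, 29.8%, 32.7% and 28.6% as TPM. For the 13 mRNAs it was 9.06%, 9.57%, 9.88% and 10.4% as TPM. Of counts it was 8.21%, 8.17%, 8.28% and 9.40% as counted, and 11.8%, 11.8%, 12.0% and 13.8% with copies. The TPM values are as deposited, without the copies, and include mt-Atp8, whose level is uncertain. With rRNA left out of the total counts the share of the 13 mRNAs was 15.2%, 13.96%, 14.8% and 16.1% as counted, and 21.8%, 20.2%, 21.5% and 23.6% with copies. The 8-day count shares include replicate A, where CT010467.1 and Lars2 took 15.8% of the total.

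Same-letter libraries of different groups did not deviate together (correlation -0.249 to 0.208 over 21 pairs), so the letters are no pairing. Under the replicate block the calls between 11 and 4 days went from 5 to 6. Copy counts added to a gene assume mitochondrial reads, groups hold 3 or 4 libraries, and tRNAs have too few counts for any statement on change.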

Other observations

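mt-Te, the glutamic acid tRNA, had 49 counts in saline replicate C and 0 to 10 in each of the other 14 libraries. Gm28439, the copy of the start of mt-Nd4, had 6640 counts in saline replicate D, 11203 in 4-day replicate A and 11619 in 4-day replicate C, and at most 4.71 in each of the other 12 libraries.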
